A study of Rattus norvegicus with 42 samples.

Results

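The proteasome subunits, activators and assembly factors examined here were the transcripts whose gene symbol was Psm followed by a letter from a to g and a number. The rule found 47 transcripts, each of a different gene, among the 15516 transcripts counted in rat hippocampus. Of these, 46 were among the 13062 transcripts with enough counts to be tested. Psma8, a testis-enriched form of an alpha subunit, was the exception, with 0 to 3 counts per animal and no count in 30 of the 41 animals analysed. Psmg3, which pairs with Psmg4 in assembly of the core, was not analysed here, and 3 further names that begin with Psm but continue past the number were not members.

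The study asked how a single neonatal dose of an anti-seizure medicine alters gene expression in the developing hippocampus. Male Sprague Dawley rat pups received 1 intraperitoneal injection on postnatal day 7. Vehicle (VEH) pups were given saline, the PB pups phenobarbital at 75 mg/kg and the LEV pups levetiracetam at 200 mg/kg, and hippocampal total RNA was sequenced 72 h later, 1 library per pup. The analysis held 13 VEH, 14 PB and 14 LEV pups, with 1 further VEH pup left out because its label marks it as excluded.

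Each pup has a short code in the labels. Animals 1 to 6 of every group have codes with 2 letters and animals 7 to 14 have codes with 1 letter, and the labels do not say what the form stands for. The study's methods state that the animals came from 2 orders, without tying an order to a code. They also state that each litter gave 1 pup to each treatment, without saying which pups were littermates. The 3 treatments were therefore compared within the 6 pups per group with two-letter codes, within the 7 VEH, 8 PB and 8 LEV pups with one-letter codes, and over both forms together with the code form as a term in the model. The p-values measure the spread between pups.

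The proteasome is the large protease that degrades proteins tagged with ubiquitin. Its barrel-shaped core is built from alpha subunits (Psma), which form the outer rings and the gate, and beta subunits (Psmb), which form the inner rings and carry the proteolytic sites, and it is capped by a regulatory particle of ATPases (Psmc) that unfold substrates and non-ATPase subunits (Psmd) that bind and remove ubiquitin. Neurons depend on it for protein turnover at synapses and during axon and dendrite growth, and interferons replace the standard catalytic subunits by inducible ones that favour antigen processing.

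Sequencing depth was similar across the pups, with total estimated counts from 9499494 to 14488125. The hippocampal markers Slc17a7, Neurod6 and Prox1 were detected in every pup analysed, at 9483 to 17807, 2680 to 4391 and 447 to 1106 counts. The share of counts taken by 18S ribosomal RNA (Rn18s) ran lower in drug-treated pups with one-letter codes. There it was 0.853% to 1.2% in VEH, 0.434% to 0.905% in PB and 0.384% to 1.06% in LEV pups, whereas with two-letter codes it was 0.963% to 1.23%, 0.953% to 1.68% and 0.932% to 1.28%. The part of this difference in the values of the proteasome transcripts was not tested.

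The proteasome transcripts were among the steadier ones in this tissue. The biological coefficient of variation estimated by edgeR, which is the pup-to-pup spread beyond counting error, had a median of 6.39% over the 46 members against 9.76% over all tested transcripts. Part of that gap went with abundance, since among transcripts with a mean of at least 500 counts it was 5.66% for 32 members and 6.94% for 4833 transcripts. The steadiest member was Psme3, a nuclear activator of the core, at 4.21%, and the most variable was the interferon-inducible subunit Psmb8 at 25.5%. With this spread, the standard error of a member's log2 fold change had a median of 0.04 over both code forms and 0.05 within the one-letter codes.

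Over both code forms, no proteasome transcript passed an adjusted p under 0.05 after PB. The whole table gave 704 called transcripts in this comparison, or 5.39% of those tested, by the quasi-likelihood test of edgeR, adjusted by the Benjamini-Hochberg method. At an unadjusted p under 0.05 the test gave 9 members, or 19.6% of the members against 20.2% of all transcripts, and 8 of the 9 were lower after PB, a direction that 10.4% of all transcripts had at that limit. DESeq2 called 2 members, Psma1 and Psmb7, both lower. The share of all transcripts that DESeq2 called is not given, in this or the other comparisons, so its calls have no background beside them. The median log2 fold change of the members was -0.02 against 0.00 for all tested transcripts, with 32 of 46 members (69.6%) and 48.1% of all transcripts below zero. Under scaling by total counts alone the members' median turned to 0.0025. That scaling moves the values of all transcripts, and their median under it is not given for this comparison. The smallest edgeR adjusted p belonged to Psma1 (log2 fold change -0.11 ± 0.04 SE, adjusted p = 0.064), followed by Psmb7 (-0.09 ± 0.03, adjusted p = 0.066) and Psmd12 (-0.08 ± 0.03, adjusted p = 0.0806). Leaving out 1 of the pups VEH 2, VEH 3, VEH 4, VEH 5, VEH 10 or PB 1 brought 1 member past the threshold, and leaving out any of the other 35 pups brought none.

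The median of the members lay on opposite sides of VEH in the 2 forms of code. Single members could keep their side, with Psma1, Psmb7 and Psmg2 below VEH and Psme1 and Psme2 above it in both. In pups with two-letter codes no member was called after PB (0.0842% of all transcripts were), and 2 members had an unadjusted p under 0.05, or 4.35% against 9.68% of all transcripts. DESeq2 called no member there either. Of the 46 members 15 were below VEH, or 32.6% against 46% of all transcripts, and their median log2 fold change was 0.03. In pups with one-letter codes 6 members were called, all lower after PB, where 6.32% of all transcripts were called and 3.64% were called lower. There 40 of 46 members, or 87%, lay below VEH against 49.4% of all tested transcripts, and their median log2 fold change was -0.08 against 0.00. It stayed negative under all 10 alternatives other than leaving out a pup, from -0.08 to -0.04. The changes were small, and none of the 6 members reached the minimum fold change that the study set, which 1.52% of all transcripts did together with the adjusted p.

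**Figure D1:**
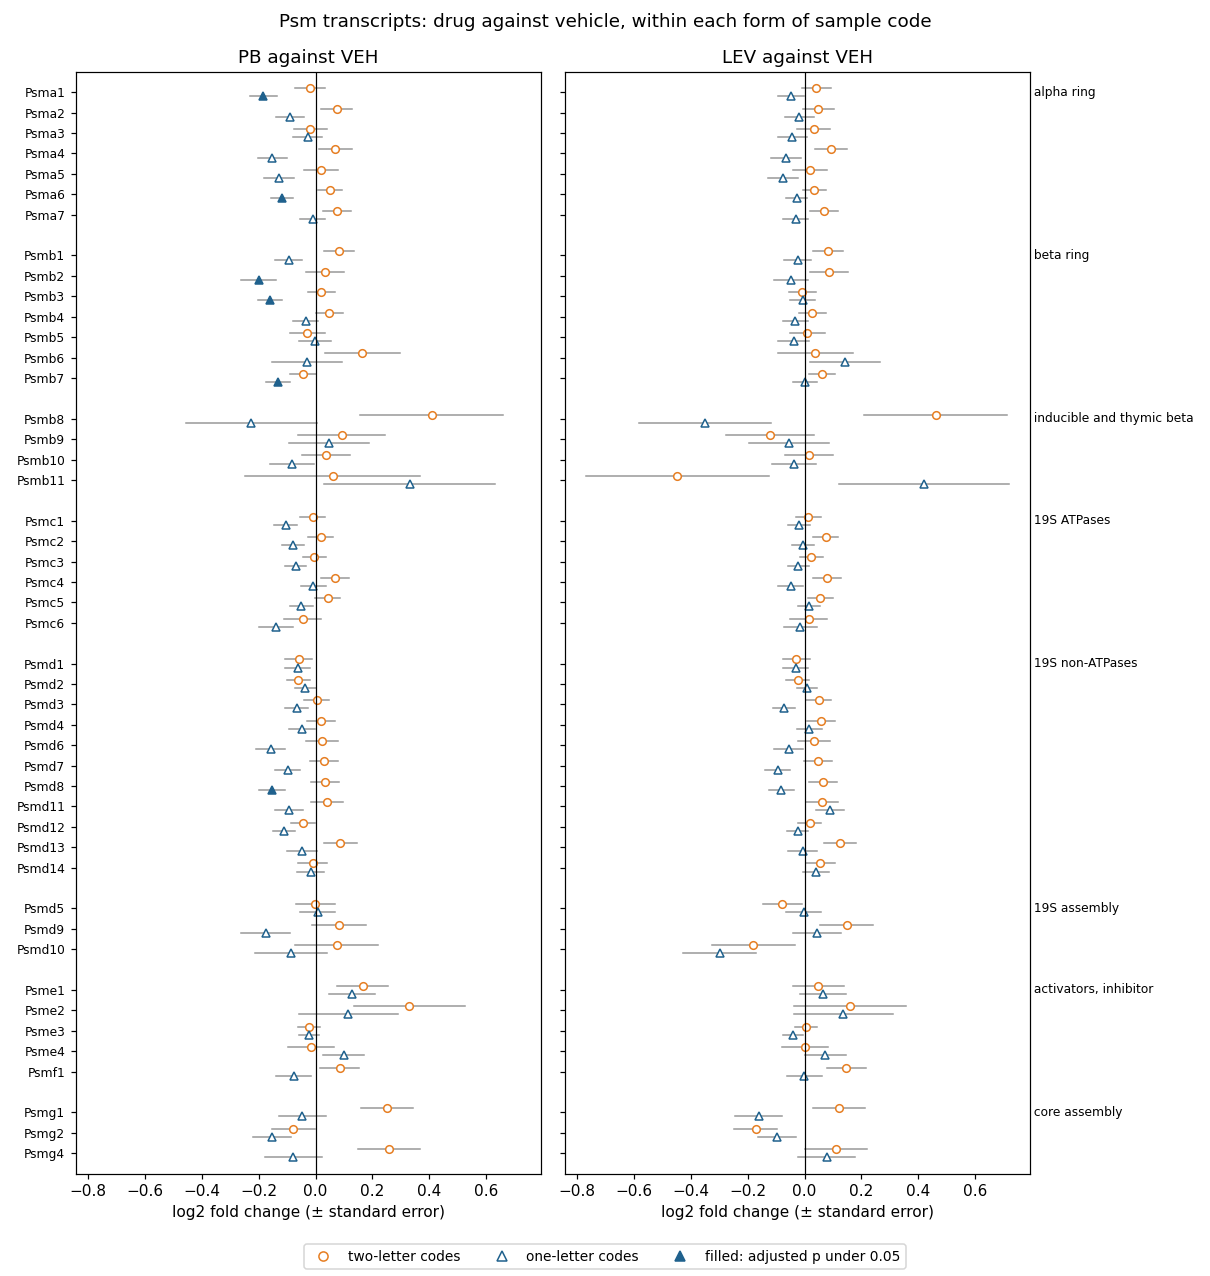
Log2 fold change (horizontal axis) with its standard error of the 46 tested proteasome transcripts, grouped by role, for PB and LEV against VEH, with circles for two-letter codes and triangles for one-letter codes. Filled symbols passed an adjusted p under 0.05, which 6 members did after PB with one-letter codes, all to the left of zero.

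Among the alpha subunits, Psma1 and Psma6 fell. Psma1 (chr1:183733567-183744587 in the rn6 build that the counts use) had 1077, 1111 and 1303 normalised counts as the lowest, median and highest of the 7 VEH pups with one-letter codes, and 900.6, 1040 and 1085 in the 8 PB pups. All 8 PB pups lay below the VEH median, 7 of them below the lowest VEH pup, and the ranges overlapped through 1 pup. It fell by 11.9% (log2 fold change -0.18 ± 0.05 SE, edgeR adjusted p = 0.014). Psma6 (chr6:76188086-76205429) ranged from 929 to 1037 around a median of 963.1 in VEH and from 819.4 to 973.9 around 894.4 in PB, with 6 of 8 PB pups below the lowest VEH pup. Its log2 fold change was -0.12 ± 0.04 (edgeR adjusted p = 0.0496), the value closest to the threshold. The other 5 tested alpha subunits had negative values that did not pass, from -0.15 for Psma4 to -0.01 for Psma7.

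Of the 7 constitutive beta subunits, 3 fell. Psmb2 and Psmb3 are non-catalytic subunits of the beta ring, and Psmb7 is the standard subunit with trypsin-like activity. Psmb2 (chr5:144702004-144734221) had a lowest, median and highest normalised count of 617.1, 661.8 and 798.2 in VEH and of 533.7, 579.6 and 661.1 in PB pups with one-letter codes. Every PB pup lay below the VEH median and 6 of 8 below the lowest VEH pup. The log2 fold change was -0.20 ± 0.06 SE (edgeR adjusted p = 0.0378), the largest fall among the called members. Psmb3 (chr10:85646633-85653730) went from 864.3, 966.5 and 996.3 in VEH to 764.4, 864.6 and 909.1 in PB, with all 8 PB pups below the VEH median and 4 below its lowest pup (-0.16 ± 0.04, edgeR adjusted p = 0.0212). For Psmb7 (chr3:22890072-22951719) the values were 1618, 1768 and 1977 in VEH and 1554, 1615 and 1731 in PB, again with every PB pup below the VEH median (-0.13 ± 0.04, edgeR adjusted p = 0.0455). The other standard catalytic subunits did not pass. Psmb5, with chymotrypsin-like activity, had a log2 fold change of 0.00 ± 0.06, and Psmb6, with caspase-like activity, one of -0.03 ± 0.12. All values of Psmb6 in the deposited counts are estimates that are not whole numbers, so its reads were divided among transcripts and its level is uncertain.

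In the regulatory particle, the lid subunit Psmd8 was the 1 called member of the 11 non-ATPase subunits. Psmd8 (chr1:88116811-88123644) had a lowest, median and highest normalised count of 1192, 1280 and 1416 in VEH and of 1079, 1165 and 1256 in PB pups with one-letter codes. All 8 PB pups were below the VEH median and 4 were below the lowest VEH pup. The log2 fold change was -0.15 ± 0.04 SE (edgeR adjusted p = 0.0321). All 11 non-ATPase subunits and all 6 ATPase subunits had values below zero in this comparison, with medians of -0.07 in each set. Psmd6, a lid subunit, just missed the threshold (-0.16 ± 0.05, edgeR adjusted p = 0.0508), and the ubiquitin receptor Psmd4 had -0.05 ± 0.05. Of the ATPases, Psmc6 had the lowest value, -0.14 ± 0.06 (edgeR adjusted p = 0.151).

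**Figure D2:**
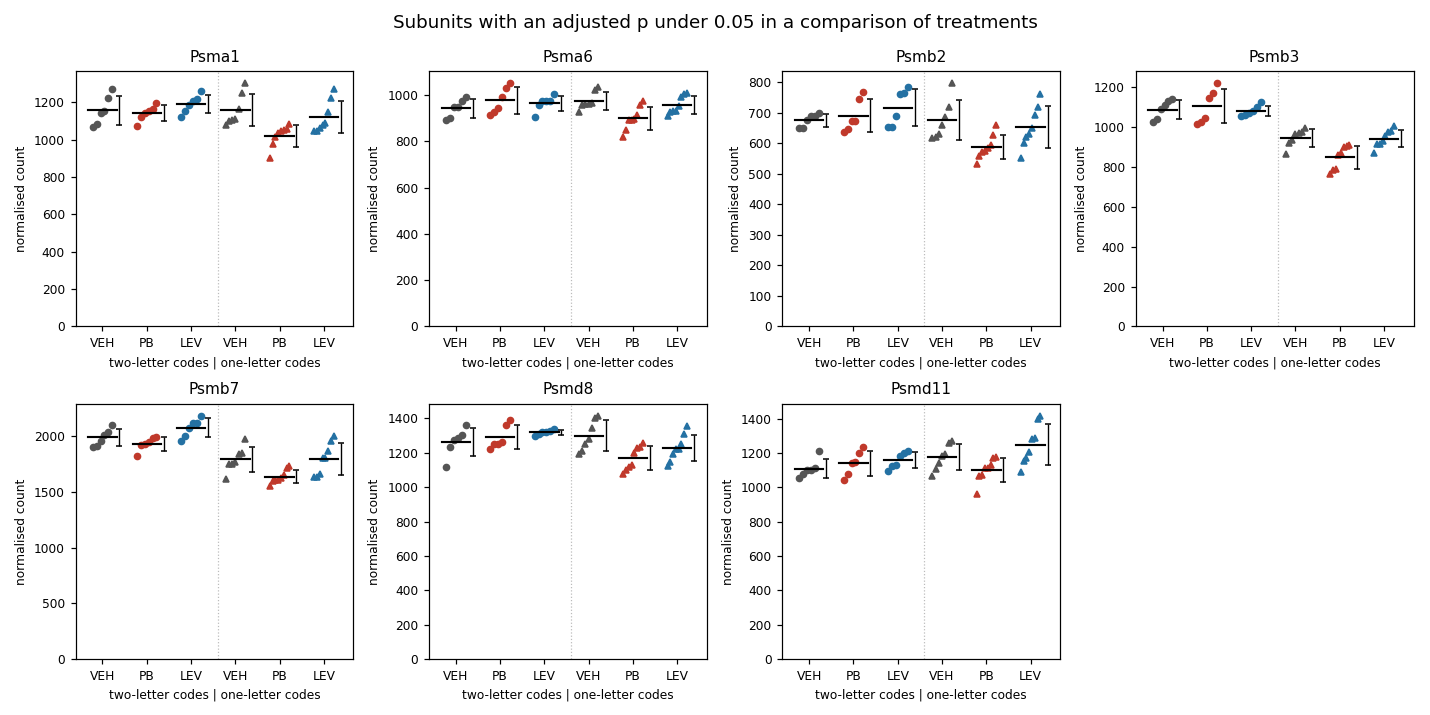
Normalised counts (vertical axis, from 0) in each pup of the 7 transcripts that passed an adjusted p under 0.05 in any comparison of treatments, by group and code form, with the mean as a horizontal line and ±1 SD as a bar. PB pups with one-letter codes (triangles) sat low for Psma1, at 900.6 to 1085 against 1077 to 1303 in VEH, whereas with two-letter codes (circles) the PB mean of 1142 was close to the VEH mean of 1156.

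The 6 calls depended on single pups and on scaling. Their number was 1 without VEH 11 or PB 7, 2 without PB 9 and 3 without VEH 9, PB 8, PB 11 or PB 12, and it was 4 to 8 without any other pup. It was 0 when counts were scaled by total counts alone, 0 when the excluded VEH pup was added back, 2 when the one-letter pups were fitted alone and 1, Psma1, with the animal number as a block. Psma1 stayed called without each of the 41 pups, Psmb3 without 38, Psmd8 without 34, Psmb2 without 32, Psmb7 without 19 and Psma6 without 8, and all 6 stayed negative throughout.

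In pups with two-letter codes the same transcripts had values near zero. Their log2 fold changes were -0.02 for Psma1, 0.05 for Psma6, 0.03 for Psmb2, 0.02 for Psmb3, -0.04 for Psmb7 and 0.03 for Psmd8, with edgeR adjusted p from 0.738 to 0.943. A test of the difference between code forms called none of the 46 members, and 0.0689% of all transcripts. At an unadjusted p under 0.05 it gave 12 members, or 26.1% against 11.1% of all transcripts, each with a more negative PB effect in one-letter codes. The smallest adjusted p was that of Psma6 (difference -0.17 ± 0.06 SE, edgeR adjusted p = 0.242). The effect in one form is therefore not shown to differ from that in the other for any single subunit.

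Summarised within each pup, the members were low in PB pups with one-letter codes. The median over the 46 members of the log2 deviation from the VEH mean of the same code form ran from -0.13 to -0.04 in the 8 PB pups with one-letter codes, all below zero. In the 7 VEH pups of that form it ran from -0.07 to 0.06 with 3 below zero, and in the 8 LEV pups from -0.09 to 0.06 with 5 below zero. With two-letter codes the range was -0.01 to 0.06 in PB, -0.01 to 0.07 in LEV and -0.04 to 0.02 in VEH pups. The PB pups with one-letter codes overlapped the lowest VEH pup, VEH 10, and the LEV pups. In bulk hippocampal RNA, fewer cells of a type and less of a transcript per cell cannot be told apart.

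**Figure D3:**
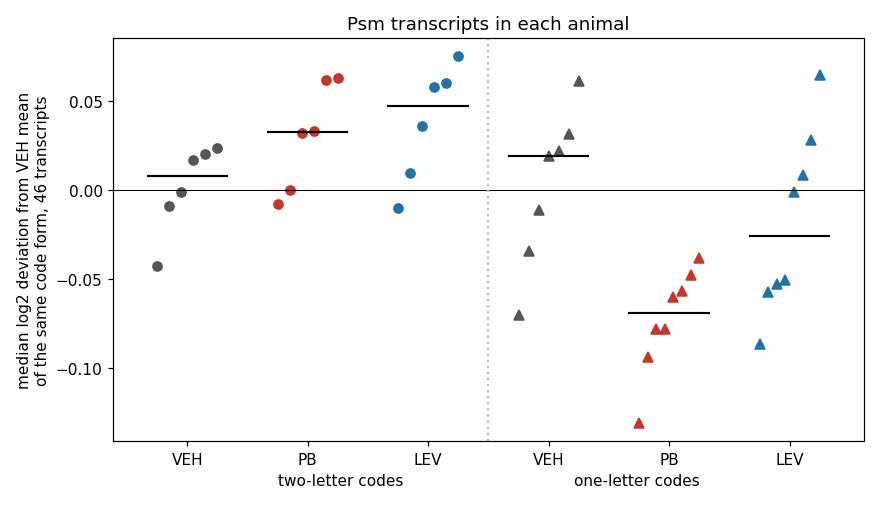
Median log2 deviation of the 46 tested proteasome transcripts from the VEH mean of the same code form (vertical axis), 1 point per pup, by group and code form, with the group median as a line. The 8 PB pups with one-letter codes lie between -0.13 and -0.04, while the 6 PB pups with two-letter codes lie between -0.01 and 0.06.

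The promoters of Psmb2 and Psmb3 are shown because these called subunits carry matches to elements known from proteasome and interferon-regulated genes. RefSeq promoter sequences (GRCr8 build, 250 bases before to 50 after the start site) were found for 42 of the 47 members. Capitals mark matches, on either strand, to the antioxidant response element core TGACNNNGC, to which Nfe2l1 and related factors bind, to the CCAAT box, bound by NF-Y, and to the interferon-stimulated response element, searched as a GAAA, any 2 bases and another GAAA. Psmb2 lies on the plus strand at chr5:144254808-144255107 and Psmb3 on the plus strand at chr10:83193537-83193836.
Psmb2: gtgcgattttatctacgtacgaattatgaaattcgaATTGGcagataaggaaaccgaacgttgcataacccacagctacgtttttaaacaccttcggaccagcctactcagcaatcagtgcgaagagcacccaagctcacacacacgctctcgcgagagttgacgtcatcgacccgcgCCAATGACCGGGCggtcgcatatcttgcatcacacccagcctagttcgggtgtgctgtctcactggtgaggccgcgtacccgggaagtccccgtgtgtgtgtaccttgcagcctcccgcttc
Psmb3: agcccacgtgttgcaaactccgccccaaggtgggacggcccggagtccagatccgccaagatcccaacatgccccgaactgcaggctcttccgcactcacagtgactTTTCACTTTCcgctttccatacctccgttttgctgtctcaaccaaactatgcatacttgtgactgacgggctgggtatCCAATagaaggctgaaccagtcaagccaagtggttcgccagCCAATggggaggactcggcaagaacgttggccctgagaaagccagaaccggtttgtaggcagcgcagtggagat
In Psmb2 the CCAAT box that starts at -72 overlaps the antioxidant response element core that starts at -68. Among the 7 called members, 1 promoter (Psmb2) held the antioxidant core, 4 a CCAAT box and 1 (Psmb3) the interferon element. Among all 42 member promoters the antioxidant core was in 8, or 19%, against 12.1% of 33469 promoters, and the CCAAT box in 20, or 47.6%, against 37.5%. For a member only the first promoter listed for its symbol was taken, whereas the 33469 are all listed promoters, so the shares are not counted alike. These are matches of letters and not measured sites.

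The interferon-inducible catalytic subunits Psmb8, Psmb9 and Psmb10, which replace standard subunits in the immunoproteasome, passed the test in no comparison. Psmb8 had a lowest, median and highest normalised count of 13.08, 33.38 and 42.19 in VEH, 23.35, 32.38 and 51.09 in PB, and 13.19, 34.14 and 56.5 in LEV pups over both code forms. The groups overlapped nearly in full, and the log2 fold changes were 0.06 ± 0.18 SE for PB and 0.02 ± 0.18 for LEV. Psmb9 ranged from 26.73 to 50.69 in VEH, 29.76 to 49.51 in PB and 28.33 to 51.41 in LEV pups, with 0.07 ± 0.10 and -0.08 ± 0.10. Psmb10 was counted at 164.2 to 239.5, 167.8 to 250.2 and 166.2 to 252.6, with -0.03 ± 0.06 and -0.01 ± 0.06. Over both forms the edgeR adjusted p of these 3 subunits against VEH was 0.769 to 0.994. Within forms, Psmb8 had 0.41 for PB and 0.46 for LEV with two-letter codes, and -0.23 and -0.35 with one-letter codes. The difference between forms gave Psmb8 an edgeR adjusted p of 0.502 for PB and 0.296 for LEV. Psmb11, the catalytic subunit of the thymic proteasome, was near the low end of what was counted, at 1.19 to 22.16 normalised counts over the 3 groups. It gave 0.18 ± 0.22 for PB over both forms.

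The promoters of Psmb8 and Psmb10, with that of the activator subunit Psme2, are shown because the interferon element lay within the window in Psmb8, Psmb10 and Psme2. Capitals mark the same 3 motifs as above, and the GRCr8 positions are chr20:4656982-4657281 for Psmb8, chr19:50743243-50743542 for Psmb10 and chr15:33052702-33053001 for Psme2, all on the minus strand.
Psmb8: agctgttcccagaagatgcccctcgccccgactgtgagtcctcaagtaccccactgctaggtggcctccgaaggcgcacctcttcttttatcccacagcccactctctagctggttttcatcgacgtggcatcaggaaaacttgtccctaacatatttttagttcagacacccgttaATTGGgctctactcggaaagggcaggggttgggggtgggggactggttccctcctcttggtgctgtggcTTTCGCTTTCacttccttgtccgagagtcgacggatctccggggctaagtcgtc
Psmb10: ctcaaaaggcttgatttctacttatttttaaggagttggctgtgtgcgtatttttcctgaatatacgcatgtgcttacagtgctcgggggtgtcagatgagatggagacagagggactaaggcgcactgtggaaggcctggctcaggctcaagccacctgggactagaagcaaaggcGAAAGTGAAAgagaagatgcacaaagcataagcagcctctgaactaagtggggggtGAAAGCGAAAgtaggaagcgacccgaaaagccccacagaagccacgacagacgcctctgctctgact
Psme2: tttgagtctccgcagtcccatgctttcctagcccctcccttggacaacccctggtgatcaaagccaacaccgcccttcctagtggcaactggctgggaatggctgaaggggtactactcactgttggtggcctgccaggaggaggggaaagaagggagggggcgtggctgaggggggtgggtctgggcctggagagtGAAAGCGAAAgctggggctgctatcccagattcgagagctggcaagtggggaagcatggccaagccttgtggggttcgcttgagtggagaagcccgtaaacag
Psmb10 held 2 matches to the interferon element, and Psmb8 and Psme2 held 1 each. The element was found in 7 of 42 member promoters, or 16.7%, against 3.92% of all promoters, again with the first listed promoter per member against all listed ones. The others with a match were Psma4, Psmb3, Psmd7 and Psmg4, and the inducible Psmb9 and Psme1 had none. The interferon gamma activated site TTCNNNGAA was in 4, or 9.52%, against 8.87%.

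Psme2 had the highest value of the members after PB over both forms, and none of the activators of the core was called. Psme1 and Psme2 form the interferon-inducible activator ring. Psme1 ranged from 161.8 to 298.5 normalised counts around a median of 253.1 in VEH and from 223.7 to 349 around 279.3 in PB pups, with a log2 fold change of 0.14 ± 0.06 SE (edgeR adjusted p = 0.147). Psme2 ranged from 18.1 to 38.61 around 23.84 in VEH and from 18.86 to 38.49 around 30.69 in PB, with 0.21 ± 0.13 (edgeR adjusted p = 0.374). Both were above VEH in each code form, at 0.17 and 0.33 with two-letter codes and at 0.13 and 0.12 with one-letter codes. Psme1 overlaps Emc9 on the genome, and the library kit does not mark strand, so reads of the 2 genes cannot be told apart there. Psme3 had -0.02 ± 0.03, Psme4, a nuclear activator known for its role in histone degradation, had 0.05 ± 0.05, and the regulator Psmf1, first described as an inhibitor of the core, had 0.00 ± 0.05.

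**Figure D4:**
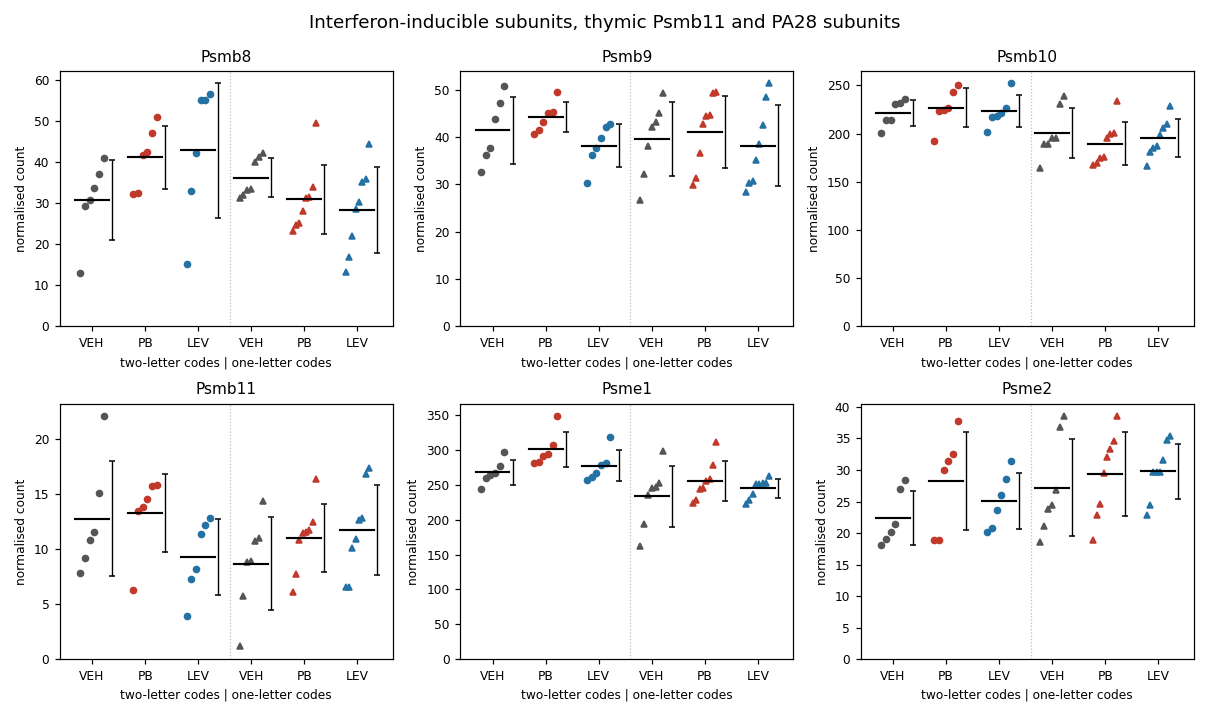
Normalised counts (vertical axis, from 0) in each pup of Psmb8, Psmb9, Psmb10, Psmb11, Psme1 and Psme2 by group and code form, with the mean as a horizontal line and ±1 SD as a bar. The groups overlap in every panel, as for Psmb8 over both forms at 13.08 to 42.19 in VEH and 23.35 to 51.09 in PB pups.

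The assembly factors showed no call either. Psmg1 and Psmg2 form a chaperone pair that guides alpha ring assembly. Psmg1 ranged from 168.8 to 251.7 normalised counts in VEH and from 181.2 to 245.8 in PB pups, with a log2 fold change of 0.09 ± 0.06 SE, and Psmg2 from 185.9 to 230.3 and from 163.8 to 220.6, with -0.12 ± 0.05 (edgeR adjusted p = 0.493 and 0.159). Over both forms the members of the pair thus had opposite signs, although neither passed. With one-letter codes all 3 tested core assembly factors lay below VEH, from -0.15 to -0.05. With two-letter codes Psmg2 was the 1 below it, at -0.08. Psmg4 gave 0.08 ± 0.08 over both forms. With two-letter codes, its PB range of 218.5 to 297.6 lay above the VEH range of 192.7 to 217.9 (0.26 ± 0.11, edgeR adjusted p = 0.426). No other pair of groups among the members and code forms had ranges apart. How often ranges lie apart over all transcripts was not counted, so this is not read as a change. Of the chaperones of the regulatory particle, Psmd5, Psmd9 and Psmd10 had 0.00, -0.06 and -0.02.

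After LEV, no proteasome transcript passed the test in either code form or in both together. This contrast has the same VEH pups as that of PB. Over both forms 0.00766% of all transcripts were called, and at an unadjusted p under 0.05 the test gave 2 members, or 4.35%, against 5.84% of all transcripts. DESeq2 called none. Members split evenly around VEH, with 23 of 46 (50%) lower against 49.8% of all transcripts and a median log2 fold change of 0.00. The 2 were Psmd10, a chaperone of the regulatory particle also known as gankyrin, and Psmg2. Psmd10 had a lowest, median and highest normalised count of 33.7, 48.77 and 71.29 in VEH and of 31.24, 40.57 and 61.02 in LEV pups (-0.25 ± 0.09 SE, edgeR adjusted p = 0.697). Psmg2 had 185.9, 216.1 and 230.3 in VEH and 166.4, 194.9 and 223.5 in LEV (-0.13 ± 0.05, edgeR adjusted p = 0.717). Both had negative values in each form. Within forms, the members were mostly above VEH with two-letter codes (8 of 46, or 17.4%, lower against 46.9% of all transcripts, with a median of 0.04) and mostly below with one-letter codes (33 of 46, or 71.7%, lower against 49.9%, with a median of -0.02). At an unadjusted p under 0.05 there were 3 members with two-letter codes, or 6.52% against 12.5% of all transcripts, and 2 with one-letter codes, or 4.35% against 6.13%, where 1.45% and 0.0383% of all transcripts passed the adjusted p. The difference between forms called no member, with 0.842% of all transcripts called and 6 members at an unadjusted p under 0.05, or 13% against 12.8% of all transcripts.

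PB and LEV were also compared directly. These contrasts use the same PB pups as the contrasts with VEH, so they are not separate evidence on PB. Over both forms 1 member was called, as lower, where 4.45% of all transcripts were called and 2.78% were called lower. Psmb7 had a lowest, median and highest normalised count of 1554, 1723 and 1990 in PB and of 1629, 1957 and 2182 in LEV pups, and the ranges overlapped, with 12 of 14 PB pups below the LEV median. It fell by 8.06% in PB relative to LEV (log2 fold change -0.12 ± 0.03 SE, edgeR adjusted p = 0.0152), and remained called without each of the 41 pups. Without the term for code form the value was -0.12 with an edgeR adjusted p of 0.171. The levels of Psmb7 also differed between forms, with VEH means of 1987 ± 75.3 (SD, n = 6) and 1792 ± 112 (SD, n = 7) for two-letter and one-letter codes. The number of called members was 2 without PB 1 or without LEV 9 and 1 without any other pup.

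With one-letter codes, 2 members were lower in PB than in LEV where 1.66% of all transcripts were called and 1.01% were called lower. Psmb3 had 764.4, 864.6 and 909.1 in PB and 871.4, 941.4 and 1007 in LEV pups, with all 8 PB pups below the LEV median (-0.15 ± 0.04 SE, edgeR adjusted p = 0.046). Psmd11 (chr10:67810655-67857224), a lid subunit that joins the regulatory particle to the core, had 962.4, 1112 and 1180 in PB and 1089, 1242 and 1418 in LEV pups (-0.18 ± 0.05, edgeR adjusted p = 0.0403). For Psmd11 the LEV pups were above VEH (0.09 ± 0.05) and the PB pups below it (-0.09 ± 0.05), and neither of those contrasts passed. Psmd11 overlaps Rnf135 on the genome. These calls were fragile. Without LEV 9 there were 3, without 13 other pups there were still 2, without 15 pups 1 and without 12 pups 0, and pups with two-letter codes were among these. With two-letter codes no member was called (0.145% of all transcripts were), and 1, Psmb7, had an unadjusted p under 0.05 (-0.11 ± 0.05, edgeR adjusted p = 0.347), or 2.17% against 12% of all transcripts. The difference between forms called no member, and 0.023% of all transcripts.

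Genes that work with the proteasome were compared as lists. None of 9 transcripts of other subunits and cofactors was called after PB over both forms or within either, with a median of -0.05 over both forms and -0.07 with one-letter codes. The lowest values there were those of the proteasome-bound deubiquitinase Usp14 (-0.21 ± 0.08 SE, edgeR adjusted p = 0.0936) and of Zfand5 (-0.12 ± 0.04, edgeR adjusted p = 0.0886). Of 16 transcripts of ubiquitin genes and substrate delivery, 1 was called with one-letter codes, where 6.32% of all transcripts were called. This was Sqstm1, the autophagy receptor that binds ubiquitin. It fell by 0.16 on the log2 scale (edgeR adjusted p = 0.0098) and had 0.04 ± 0.04 with two-letter codes. The second Sqstm1 transcript had 0.09 ± 0.20. Vcp, the ATPase that extracts ubiquitinated proteins, had -0.06 ± 0.02 over both forms (edgeR adjusted p = 0.0717).

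A further list of 11 transcripts held the Nfe2l transcription factors and genes linked to them (Ddi2, Ngly1, Keap1, Hmox1, Nqo1 and Gclm). With one-letter codes 1 was called after PB, where 6.32% of all transcripts were called. Nfe2l1 encodes the factor that raises proteasome gene transcription when proteasome activity is low. Its transcript NM_001372251 fell by 0.83 on the log2 scale after PB with one-letter codes (SE 0.25, edgeR adjusted p = 0.0409) and had 0.27 ± 0.28 with two-letter codes. Its other transcripts, NM_001108293 and NM_001372250, had 0.01 ± 0.10 and 0.11 ± 0.19 with one-letter codes, so the values of its transcripts did not share a sign, and the estimation of counts divides shared reads between such transcripts. Among 17 tested transcripts of interferon response and antigen processing, 1, Ifit2, was called after PB over both forms (-0.29 ± 0.09, edgeR adjusted p = 0.0475). There 5.39% of all transcripts were called, and the median of the list was 0.08. After LEV none of these 4 lists had a call, over both forms or within either.

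Markers of other cell types are given beside the one-letter comparison, in which the 6 subunits fell. Summed normalised counts of 12 microglial transcripts were 2401 to 2867 in VEH and 2253 to 2974 in PB pups, with medians of 2459 and 2602. Cd68, a lysosomal marker of phagocytic microglia, was called higher (1.11 ± 0.23 SE on the log2 scale, edgeR adjusted p = 0.0043), and 5 of 12 transcripts were below VEH. Sums over 13 transcripts of mature oligodendrocytes were 9377 to 18310 in VEH and 8233 to 16190 in PB. Of these transcripts 10 of 13 were below VEH, whereas the median sum was higher in PB, at 12580 against 11710. Sums over 9 entries for hippocampal excitatory neurons were 26780 to 34340 in VEH and 23820 to 29880 in PB, with medians of 29070 and 27570. Of these entries, 7 of 9 were below VEH. Fibcd1 has 2 of the entries, each at 1010 to 2116 counts over the pups, and both are in the sums. Choroid plexus transcripts varied widely within each group, from 73.84 to 43730 in VEH and from 99.02 to 64720 in PB, with all 9 above VEH. Their median sums were 172.9 in VEH and 7862 in PB. Skeletal muscle transcripts were at 118 to 174.5 and 81.31 to 147.8, with medians of 145.1 and 128.2 and 2 of 3 tested below VEH. Endothelial sums were 3049 to 3831 and 2631 to 3573, with medians of 3463 and 3137. There 6 of 7 transcripts were below VEH, and the smallest edgeR adjusted p, 0.0542, was that of the tight junction gene Cldn5. Red blood cell sums were 263.3 to 6861 and 306 to 4212. Of their transcripts 5 of 6 were below VEH, whereas the median sum was higher in PB, at 1045 against 765.8. Apart from Cd68, no transcript of these lists was called in this comparison, where 6.32% of all transcripts were called. None of the transcripts of these lists was at 0 in every pup. With two-letter codes, where no subunit was called, skeletal muscle sums were 303.6 to 479.8 in VEH and 124.5 to 172.5 in PB. The part of these cell types in the proteasome values was not tested.

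The VEH pup that the label marks as excluded stood apart in these transcripts. Of the 46 tested members, 22 lay below and 13 above the range of the other 7 VEH pups with one-letter codes, with a median log2 ratio of -0.23 to their mean, and Rn18s took 2.42% of its counts. Psma1, at 587.7 normalised counts against 1076 to 1301 in the others, was among those below.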

How the data were processed

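The hippocampus of each of 42 rat pups gave 1 library of total RNA, and 41 were analysed (VEH 13, PB 14, LEV 14). Per the labels and the study's methods, the authors trimmed reads, aligned them to rn6 with STAR 2.7.3a and deposited estimated counts per RefSeq transcript from the Partek E/M algorithm, without normalization; 13.4% of the deposited values are not whole. The authors' own table of comparisons, which holds p-values, fold changes and group means, was not used. The tool names and the build come from the submitters' processing notes. No row lacked a gene name.

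Counts were rounded, and edgeR 4.0.16 in R 4.3.3 was used (TMM, filterByExpr by treatment, glmQLFit and glmQLFTest, Benjamini-Hochberg over 13062 transcripts, called at an adjusted p under 0.05). Contrasts over both code forms came from treatment plus code form, and contrasts within a form and their difference from a model with the 6 cells of treatment and form. Normalised counts are rounded counts scaled to the mean effective library size of 11405252, where library sizes ran from 9588079 to 13786159, and the standard errors carry the counting error of each member. The member rule, the lists and the tests were chosen with earlier results of these data known. Members called in any contrast, the 3 highest and 3 lowest over both forms in each contrast, the catalytic and inducible subunits, activators, Psmf1, Psmd4, Psmd11 and the Psmg genes are given by name. Psma4, Psma7, Psmb11, Psmd5, Psmd6 and Psmd12 were partly named after their values were seen.

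The alternatives were other scalings (DESeq2 size factors, upper quartile, total counts), no filter or a mean of at least 50 counts, DESeq2 1.42.0, a block for the animal number, the excluded VEH pup kept, counts summed per gene symbol, no code form term, only the groups compared, an unweighted mean of the forms, each form alone, and each pup left out in turn. The scripts were tested on simulated data. Promoter sequences are from RefSeq, figures were drawn with matplotlib 3.10.9 in Python 3.11.15, and protein sequences were not used here.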

Additional observations from a re-analysis of the deposited data

Results flagged for a closer look

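The screen covered only the members selected by the naming rule above, some of them for their values, and not all 46 tested members. Among 150 sets of pups (such a member in 1 treatment and code form), 9, or 6%, held a pup set apart from the others. Its gap over the range exceeded Dixon's 95% limit, which chance gives in about 1 in 20 sets. The values are normalised counts. Psmb11 was at 6.286 in PB 3 against 13.48 to 15.86 in the other PB pups with two-letter codes. Psmb5 was at 1815 in LEV 14 against 1390 to 1486 with one-letter codes, and Psmb8 at 49.51 in PB 10 against 23.35 to 33.87. Among the VEH pups, Psmc6 was at 1191 in VEH 1 against 1016 to 1074 and Psmd11 at 1214 in VEH 6 against 1054 to 1114, both with two-letter codes, and Psmd4 was at 808.6 in VEH 14 against 953.8 to 1031 with one-letter codes. Psme4 was at 2063 in PB 7 against 1639 to 1810 and Psmf1 at 333.6 in PB 13 against 267.4 to 297.9, both with one-letter codes. Psmg2 was at 172.9 in PB 5 against 199.5 to 214.3 with two-letter codes. Of these, only Psmd11 was called in a comparison, that of PB with LEV in one-letter codes.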

How the results depend on the processing

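The number of called members was 0 in LEV against VEH over both forms and within each, in PB against VEH and PB against LEV with two-letter codes, and in all 3 differences between forms, under each alternative and without each of the 41 pups. For PB against VEH over both forms it was 0, except 2 with DESeq2 and 0 to 1 when a pup was left out. For PB against LEV over both forms it was 1, except 2 with DESeq2, 0 without the code form term, and 1 to 2 when a pup was left out. For PB against VEH with one-letter codes it was 6 and became 0 with total counts only, 0 with all 14 VEH pups, 2 with each code form fitted alone and 1 with the animal number as a replicate block. It was 4 to 8 under the other alternatives, and 1 to 8 when a pup was left out. For PB against LEV with one-letter codes it was 2 and became 0 with total counts only, 1 without a filter, 0 with all 14 VEH pups, 0 with each code form fitted alone, 0 with the replicate block and 3 with DESeq2, and 0 to 3 when a pup was left out. The cause of these changes was not tested. Each litter gave 1 pup to each treatment, but the labels tie no number to a litter, so a pairing by litter was not available here. Deviations over all tested transcripts were also correlated between pups of different treatments with the same number. Of 40 such pairs, 10 had a correlation over 0.1 (range -0.33 to 0.33), and 7 of 41 pups correlated best with a pup of their own number. No rate for pups with different numbers was worked out, so these values do not show whether a number marks a litter. The median of the members for PB against VEH with one-letter codes moved from -0.08 to -0.04 with total counts only, when that of all transcripts was 0.04, and no fold change of a called member changed sign. Counting error limits Psmb8, Psmb9, Psmb11, Psmd10 and Psme2, which have the lowest counts of the tested members.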
